A study of Mus musculus with 8 samples.

Results

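Annexin A1 (Anxa1) and 4 G protein-coupled receptors of resolvins, chemerin and formyl peptides (Gpr18, Fpr1, Fpr2 and Cmklr1) were followed through the CD45+ cells of E0771 tumors. The 5 genes were taken by symbol from the 32285 genes in each count matrix, and each symbol matched 1 row. E0771 is a mammary carcinoma line of C57BL/6 mice, and E0771-Res1 and E0771-Res2 are resistant lines grown out of E0771 tumors that relapsed after paclitaxel plus anti–PD-1 treatment. Each is 1 derived line, so its mice are replicates of that line and not of resistance in general. Cells were implanted in the mammary fat pad of female C57BL/6 mice, whose age the sources used here do not give. Tumors were taken on day 18, CD45+ cells were sorted, and the cells of each mouse carried their own oligonucleotide tag through droplet-based 3′ single-cell RNA-seq. Neither the labels nor the design text names a genotype change in the host or a treatment of the sampled mice. Used here were 2 parental E0771 mice (replicates 1 and 3), 3 E0771-Res1 mice and 3 E0771-Res2 mice, and a parental replicate 2 was not used here.

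Resolution of inflammation is an active process in which lipid and protein mediators stop leukocyte entry and promote the clearance of dead cells. Annexin A1 is a glucocorticoid-induced, phospholipid-binding protein of myeloid cells that, once released, acts through formyl peptide receptors. Fpr1 senses N-formylated peptides of bacteria and mitochondria, and Fpr2 binds annexin A1, serum amyloid A and lipid mediators such as lipoxin A4 and resolvin D1. Cmklr1 is the receptor of the chemoattractant chemerin and of resolvin E1, and Gpr18 has been described as a receptor of resolvin D2.

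Of 11430 deposited cells, 10605 had 500 to 6000 detected genes and under 10% mitochondrial counts and were kept. Total counts of unique molecular identifiers (UMIs) ran from 5036667 to 18894504 per mouse, and the median kept cell had 5589 to 8160 UMIs. The 2 shallowest mice were E0771-Res2 replicates 2 and 3. Cells were sorted into classes by the UMIs of marker genes that did not include the 5 genes. Monocytes (3393 cells) had under 3 C1qa UMIs, at least 10 Lyz2 UMIs and at least 3 of Ly6c2, Vcan and Plac8. Macrophages (2226 cells) had at least 10 C1qa UMIs. Dendritic cells (437) and lymphoid cells (668) were gated on their own markers and subdivided into types. Left out of the classes were 589 cells between monocyte and macrophage, 815 cells with markers of both myeloid and lymphoid cells, 17 neutrophils and 2460 cells that met no gate. Marker lists not used in the gates followed the labels in the pairs of classes that held their own class. All 6 macrophage markers tested were higher and all 5 monocyte markers lower in macrophages than in monocytes. All 4 dendritic markers were higher in dendritic cells than in either, and all 4 T and all 4 NK cell markers were higher in lymphoid cells. Markers also differed between other classes. Of the 6 macrophage markers, 3 were higher and 1 lower in lymphoid than in dendritic cells, and 2 of 4 NK cell markers were higher in dendritic cells than in macrophages. Levels are given as CPM, the UMIs of a gene in the summed cells scaled to the usual common total. That total leaves out genes starting with mt-, Rpl, Rps or Gm. Markers of neutrophils, 10 genes in all, summed to 62.8 to 86.6 CPM in the monocytes of single mice and to 16.9 to 35.8 CPM in their macrophages. The part of these markers in the results was not tested.

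Kept cells held 920 UMIs of Gpr18 (ENSMUSG00000050350), 1123 of Fpr1 (ENSMUSG00000045551), 3837 of Fpr2 (ENSMUSG00000052270), 3126 of Cmklr1 (ENSMUSG00000042190) and 22644 of Anxa1 (ENSMUSG00000024659). In the mm10 (GRCm38) annotation the genes lay at chr14:121911253-121915781 (Gpr18), chr17:17876471-17883940 (Fpr1), chr17:17887824-17893952 (Fpr2), chr5:113612354-113650426 (Cmklr1) and chr19:20373428-20390944 (Anxa1), with Fpr2 on the plus strand and the others on the minus strand. Fpr1 and Fpr2 were neighbors that pointed away from each other, with 3883 bases between them. Fpr2 overlapped the annotated span of Fpr3 (chr17:17887852-17971677), which had 0 UMIs in the kept cells. Of the 1295 stretches of 31 bases in Fpr2 transcripts, 557 (43.0%) also occurred in another gene, 487 of them in the pseudogene Gm5966. No UMIs of Gm5966 were found, and whether it has a row of its own in the count matrices was not checked. Reads from shared stretches can be split or dropped in counting, so the level of Fpr2 is uncertain to that extent. Fpr1 shared 20 of 1294 stretches (1.55%), all with Fpr2. Cmklr1 shared 17 of 3328 (0.511%), and Gpr18 and Anxa1 shared none of 1468 and 2960.

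The 250 bases before the RefSeq start of Fpr1, Fpr2, Cmklr1 and Anxa1, the 4 genes with their highest class mean in monocytes or macrophages, are shown as sequence context, and nothing about the class levels was tested on them. Sequences are from RefSeq (GRCm38.p6), written 5′ to 3′ along the strand of the gene, and the RefSeq starts of Cmklr1 and Anxa1 lie inside the annotated spans given above. Capitals mark matches on either strand to GAGGAA, a core of the myeloid and B cell factor PU.1, or to TTGCNNAA, a core of C/EBP factors.
Fpr1, chr17:17883940-17884189, minus strand: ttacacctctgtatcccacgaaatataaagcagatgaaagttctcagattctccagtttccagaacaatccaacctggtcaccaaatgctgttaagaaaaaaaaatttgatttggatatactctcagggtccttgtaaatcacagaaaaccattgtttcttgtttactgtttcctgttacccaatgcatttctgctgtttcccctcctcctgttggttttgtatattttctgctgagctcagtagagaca
Fpr2, chr17:17887574-17887823, plus strand: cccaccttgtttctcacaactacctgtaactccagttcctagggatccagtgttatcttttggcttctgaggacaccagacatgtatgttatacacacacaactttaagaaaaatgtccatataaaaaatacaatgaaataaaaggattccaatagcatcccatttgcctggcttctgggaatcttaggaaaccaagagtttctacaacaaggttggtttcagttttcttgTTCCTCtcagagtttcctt
Cmklr1, chr5:113643604-113643853, minus strand: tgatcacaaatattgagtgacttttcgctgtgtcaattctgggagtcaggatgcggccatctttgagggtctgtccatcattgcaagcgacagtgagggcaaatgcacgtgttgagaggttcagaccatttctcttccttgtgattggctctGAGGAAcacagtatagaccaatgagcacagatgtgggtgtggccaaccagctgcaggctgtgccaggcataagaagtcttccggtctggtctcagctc
Anxa1, chr19:20390672-20390921, minus strand: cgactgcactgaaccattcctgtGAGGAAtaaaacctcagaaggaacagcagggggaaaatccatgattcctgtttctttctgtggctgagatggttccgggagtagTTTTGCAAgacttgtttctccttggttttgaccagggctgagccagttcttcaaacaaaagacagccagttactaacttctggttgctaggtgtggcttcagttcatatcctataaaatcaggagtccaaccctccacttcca

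GAGGAA occurred in Fpr2 on the opposite strand 19 to 14 bases before the start, in Cmklr1 98 to 93 bases before it and in Anxa1 227 to 222 bases before it. It also occurred in 7638 of 32841 promoters of this length (23.3%). TTGCNNAA occurred in Anxa1, on the opposite strand 143 to 136 bases before the start, and in 9.57% of all promoters. The palindromic consensus site of the glucocorticoid receptor, also searched on both strands, occurred in 0.387% of all promoters and in none of the 5. The windows of Fpr1 and Gpr18 held none of the 3 motifs. A match is a match of letters only, and overlapping matches of different motifs did not occur in these windows.

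Across cell classes, Fpr2 and Cmklr1 had their highest class levels in monocytes and macrophages, Fpr1 was close to absent from dendritic cells, Gpr18 was highest in NK cells among the types with values per mouse, and Anxa1 was high in monocytes, macrophages and conventional dendritic cells alike. Counts were summed per mouse and class, and the sums of all 4 classes were compared in 1 edgeR quasi-likelihood fit with the mouse as a block. Of the 30 combinations of 5 genes and 6 pairs of classes, 25 passed an adjusted p of 0.05 (Benjamini-Hochberg over 8227 genes). Differences between classes were frequent for all genes, and 52.4% of the genes tested passed between macrophages and monocytes. The corresponding shares were 47.6% (dendritic cells against monocytes), 68.9% (lymphoid cells against monocytes), 49.6% (dendritic cells against macrophages), 65.1% (lymphoid cells against macrophages) and 52.0% (lymphoid against dendritic cells). The fit scaled the sums with TMM factors, which moved log2 differences by -0.13 between macrophages and monocytes, by -0.37 between lymphoid cells and monocytes and by -0.32 between lymphoid and dendritic cells relative to plain CPM. CPM values below are unscaled, and log2 fold changes are from the fit.

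**Figure D1:**
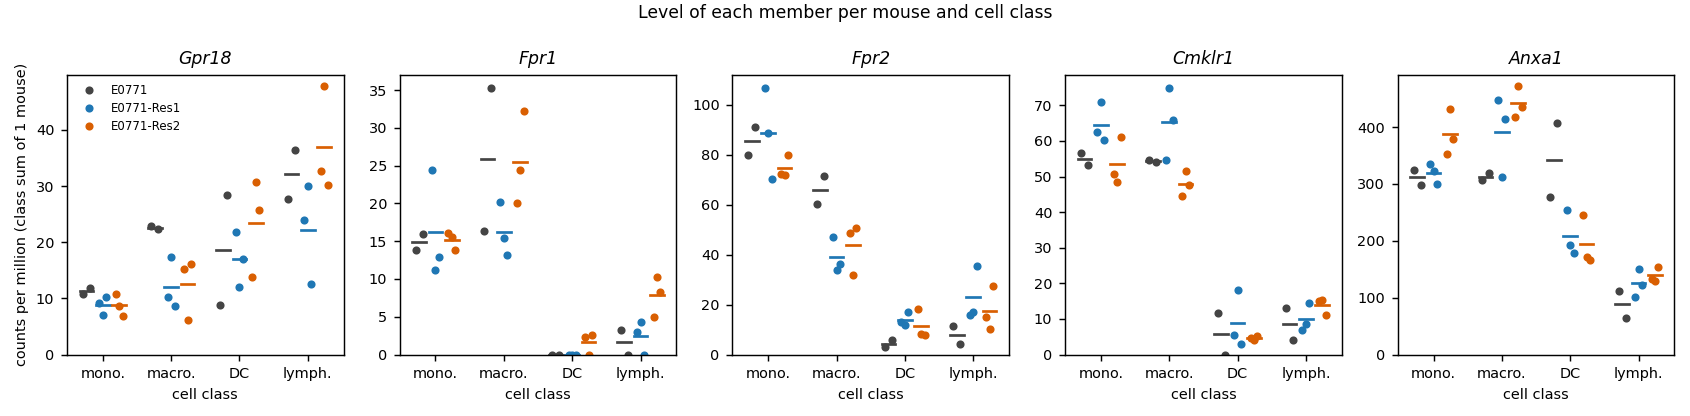
Level of each gene in monocytes (mono.), macrophages (macro.), dendritic cells (DC) and lymphoid cells (lymph.), in CPM of the class sum of 1 mouse. Each point is 1 mouse colored by tumor line (2 E0771, 3 E0771-Res1, 3 E0771-Res2) and bars are line means. Fpr2, Cmklr1 and Fpr1 lay near 0 in dendritic cells, and Gpr18 was higher in lymphoid cells than in monocytes in 8 of 8 mice.

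Fpr2, the receptor of annexin A1 and resolvin D1, was highest in monocytes. Its level there was 80.1 and 91.0 CPM in the parental mice, 107, 88.7 and 70.5 CPM in E0771-Res1 mice and 72.5, 71.9 and 80.1 CPM in E0771-Res2 mice. In macrophages it was 60.5 and 71.7 CPM in parental, 47.2, 33.9 and 36.3 CPM in E0771-Res1 and 48.8, 31.8 and 50.6 CPM in E0771-Res2 mice. The monocytes of every mouse thus held more Fpr2 than its macrophages. The fitted log2 fold change from monocytes to macrophages was -0.94 (SE 0.12, adjusted p = 4.02e-08), a 1.91-fold lower level, and this call held under all 17 alternatives. Cells between the gates had 75.5 ± 26.7 CPM (SD, n = 8 mice), a mean between those of monocytes (82.7 ± 12.3) and macrophages (47.6 ± 13.8).

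Dendritic cells had 10.6 ± 5.44 CPM of Fpr2 and lymphoid cells 17.1 ± 10.0 CPM. Both lay below monocytes in 8 of 8 mice, with log2 fold changes of -2.91 (SE 0.24, adjusted p = 4.15e-12) and -2.62 (SE 0.20, adjusted p = 1.8e-13). The difference between lymphoid and dendritic cells did not pass the test (log2 fold change 0.29, SE 0.38, adjusted p = 0.555). The order of levels was therefore monocytes, macrophages and then dendritic and lymphoid cells, whose levels did not differ beyond their spread.

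Cmklr1, the chemerin and resolvin E1 receptor, had similar mean levels in monocytes and macrophages. Monocytes had 58.0 ± 7.26 CPM (SD, n = 8) and macrophages 56.0 ± 9.92 CPM, with macrophages higher in 4 mice and lower in 4. The fit called macrophages lower by a small amount (log2 fold change -0.20, SE 0.08, adjusted p = 0.044), a call that held in 6 of 17 alternatives and whose size is close to the TMM shift. Dendritic cells had 6.48 ± 5.71 CPM, from 0 in E0771 replicate 3 to 18.1 CPM in E0771-Res1 replicate 2, the latter from 3 UMIs in 22 cells. Lymphoid cells had 11.1 ± 4.19 CPM. Relative to monocytes, the log2 fold changes were -3.31 (SE 0.22, adjusted p = 8.99e-15) in dendritic and -2.70 (SE 0.17, adjusted p = 6.38e-16) in lymphoid cells, lower in 8 of 8 mice for both. NK cells had 15.4 ± 9.44 CPM (n = 7 mice with at least 10 NK cells), from 16 UMIs in all.

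Fpr1, the N-formyl peptide receptor, was sparse but had a sharp class pattern. It was at 15.5 ± 3.97 CPM in monocytes and 22.1 ± 7.98 CPM in macrophages, higher in the macrophages of 7 of 8 mice, and this difference missed the threshold (log2 fold change 0.30, SE 0.15, adjusted p = 0.0987). Dendritic cells held 2 Fpr1 UMIs in 437 cells, 1 each in E0771-Res2 replicates 1 and 3, and 0 in the other 6 mice. Pooled over mice, the ratio of dendritic cells to monocytes (335 UMIs) was 0.038 with a 95% counting interval of 0.00458 to 0.138. Against macrophages (401 UMIs) it was 0.0281 (0.00339 to 0.102). Conventional dendritic cells had no Fpr1 UMI in 173 cells. After thinning to equal depth, 0 of 172 such cells allowed a share of cells with an Fpr1 UMI of up to 2.12% (exact interval, counting error only), which does not limit the share that express the gene, since 3.13% of thinned monocytes had such a UMI. Lymphoid cells had 4.26 ± 3.61 CPM from 17 UMIs, called lower than monocytes (log2 fold change -2.21, SE 0.33, adjusted p = 4.29e-07) and higher than dendritic cells (2.40, SE 0.91, adjusted p = 0.0274). The last call rests on the 2 dendritic UMIs and held in 15 of 17 alternatives. The lymphoid gates admitted cells with under 10 C1qa UMIs and the dendritic gates only cells with under 3. Of the 6 macrophage markers, 3 were called higher and 1 lower in lymphoid than in dendritic cells. The part of such myeloid RNA in the Fpr1 call was not tested.

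Gpr18, the resolvin D2 receptor, ran the other way. Its mean was 9.43 ± 1.79 CPM in monocytes, 14.9 ± 6.15 CPM in macrophages, 19.8 ± 8.1 CPM in dendritic cells and 30.2 ± 10.1 CPM in lymphoid cells (SD, n = 8). Lymphoid cells had 27.7 and 36.5 CPM in parental, 23.9, 30.1 and 12.5 CPM in E0771-Res1 and 32.7, 47.8 and 30.2 CPM in E0771-Res2 mice, above the monocytes and the macrophages of the same mouse in 8 of 8 mice. Against monocytes the log2 fold change was 1.30 in lymphoid cells (SE 0.24, adjusted p = 1.16e-05, 2.46-fold) and 1.10 in dendritic cells (SE 0.28, adjusted p = 0.0014, 2.15-fold, higher in 7 of 8 mice). Lymphoid and dendritic cells did not differ beyond their spread (0.20, SE 0.29, adjusted p = 0.596). Macrophages were called above monocytes (0.46, SE 0.20, adjusted p = 0.0495, higher in 6 of 8 mice) and below dendritic cells (0.65, SE 0.27, adjusted p = 0.0456, dendritic cells higher in 5 of 8 mice). Each of these last calls held in 8 of 17 alternatives.

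Within the lymphoid cells the NK cells, cytotoxic innate lymphocytes, held most Gpr18. NK cells had 65.0 and 52.6 CPM in the parental mice, 36.0 and 33.8 CPM in E0771-Res1 replicates 1 and 3 and 78.4, 83.0 and 79.9 CPM in E0771-Res2 mice. E0771-Res1 replicate 2 had only 9 NK cells and was left out of this mean, 61.2 ± 20.8 CPM (n = 7). CD8+ T cells had 12.0 ± 6.08 CPM (n = 6) and T cells without Cd8a and Cd8b1 UMIs 24.4 ± 19.4 CPM (n = 8). NK cells were above CD8+ T cells in 5 of 5 mice with both and above the other T cells in 6 of 7. Gpr18 did not pass the low-count filter of the fit over single types. Without the filter, edgeR called NK cells higher than CD8+ T cells (log2 fold change 2.26, adjusted p = 2.19e-05) and than the other T cells (1.34, adjusted p = 0.00343). Conventional dendritic cells had 24.8 ± 10.3 CPM (n = 8) and mature dendritic cells 10.3 ± 13.8 CPM (n = 7), the latter from 18 UMIs in 230 cells.

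Anxa1 was abundant in the myeloid classes. Macrophages had 391 ± 67.1 CPM, monocytes 343 ± 44.7 CPM and the cells between them 386 ± 60.9 CPM (SD, n = 8). Macrophages and monocytes did not differ beyond the spread (log2 fold change 0.06, SE 0.11, adjusted p = 0.653, macrophages higher in 6 of 8 mice). Dendritic cells had 237 ± 80.9 CPM, below monocytes in 7 of 8 mice (-0.62, SE 0.13, adjusted p = 0.000206). Lymphoid cells had 121 ± 28.8 CPM, below every other class in 8 of 8 mice, with -1.87 against monocytes (SE 0.14, adjusted p = 9.54e-14) and -1.25 against dendritic cells (SE 0.16, adjusted p = 5.42e-08).

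The dendritic mean hid a split between its types. Conventional dendritic cells, gated on Flt3, Zbtb46 and Cd209a, had 522 and 464 CPM of Anxa1 in the parental mice, 378, 273 and 295 CPM in E0771-Res1 and 457, 234 and 420 CPM in E0771-Res2 mice. Mature dendritic cells, gated on Ccr7 and Fscn1, had 22.7 CPM in parental replicate 1, 96.1, 78.2 and 93.5 CPM in E0771-Res1 and 5.77, 47.7 and 79.4 CPM in E0771-Res2 mice. The ranges did not overlap, and conventional cells were higher in 7 of 7 mice. In a fit over single types, chosen after the data had been seen, the log2 fold change was 2.35 (SE 0.29, edgeR adjusted p = 1.57e-08, 5.11-fold), beside 43.8% of 4431 genes that differed between these types. This call held in all 12 alternatives.

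Among lymphocytes, Anxa1 was highest in NK cells, at 190 ± 61.1 CPM (n = 7). CD8+ T cells had 57.1 ± 23.8 CPM (n = 6) and the other T cells 117 ± 55.9 CPM (n = 8). NK cells exceeded CD8+ T cells in 5 of 5 mice (log2 fold change 1.84, SE 0.35, edgeR adjusted p = 0.000315, beside 9.70% of genes called). They also exceeded the other T cells (0.86, SE 0.29, adjusted p = 0.0348, beside 18.8% of genes), and CD8+ T cells were below those (-0.98, SE 0.35, adjusted p = 0.0466, beside 19.4%). The last pair of calls each held in 7 of 12 alternatives.

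The share of cells with at least 1 UMI of each gene was compared at equal depth by thinning each cell to 2500 UMIs, which left out 9.15% of parental, 9.63% of E0771-Res1 and 13.5% of E0771-Res2 cells. Fpr2 was seen in 14.1% of thinned monocytes (95% exact interval 12.9 to 15.3%) and 9.04% of macrophages (7.88 to 10.3%). Before thinning the shares were 28.1% at a median of 7236 UMIs and 23.9% at a median of 9288 UMIs. In CD8+ T cells, a type not known for Fpr2, the thinned share was 1.74% (0.361 to 5.01%), and the unthinned share 5.0% at a median of 8925 UMIs. Read as background, the CD8+ T cell share lay below the monocyte and macrophage shares, and all 3 intervals cover counting error only.

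Cmklr1 was seen in 10.8% of thinned monocytes (9.78 to 11.9%), 11% of macrophages (9.75 to 12.4%) and 1.16% of CD8+ T cells (0.141 to 4.14%). NK cells had 6.34% (2.94 to 11.7%), an interval that overlaps those of monocytes and macrophages. Fpr1 was seen in 3.13% of thinned monocytes (2.57 to 3.79%), 3.75% of macrophages (3.0 to 4.63%) and 0.581% of CD8+ T cells (0.0147 to 3.2%). The macrophage and monocyte intervals overlap for both genes.

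Gpr18 was seen in 10.6% of thinned NK cells (6.03 to 16.8%) against 1.96% of monocytes (1.52 to 2.49%) and 0.446% of mature dendritic cells (0.0113 to 2.46%). Before thinning, 32.0% of NK cells at a median of 7592 UMIs and 5.28% of monocytes had a Gpr18 UMI. Anxa1 was seen in 46.8% of thinned macrophages (44.7 to 48.9%), 43.6% of conventional dendritic cells (36.1 to 51.4%), 39.7% of monocytes (38.0 to 41.4%), 25.4% of NK cells (18.4 to 33.3%) and 6.4% of CD8+ T cells (3.24 to 11.2%). No gated type can be taken to lack Anxa1, so the CD8+ T cell share is only an upper limit of its background.

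**Figure D2:**
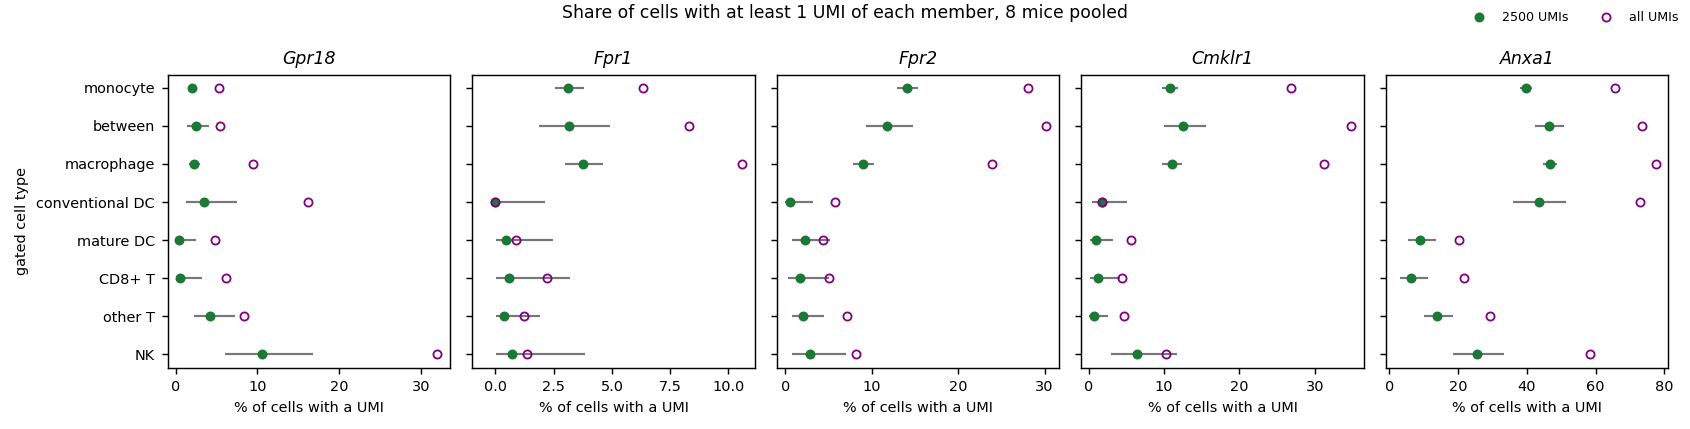
Share of cells with at least 1 UMI of each gene, in percent, in 8 gated cell types with the 8 mice pooled. Filled points are cells thinned to 2500 UMIs with 95% exact intervals, and open circles are the same types with all UMIs. Fpr2 ran from 14.1% of thinned monocytes to 1.74% of CD8+ T cells, and Gpr18 reached 10.6% in NK cells.

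Within classes, the receptors were spread unevenly over cells. Of 3318 thinned monocytes, 104 had an Fpr1 UMI, 468 an Fpr2 UMI and 41 had both. Fpr2 was seen in 39.4% of monocytes with Fpr1 and 13.3% of those without, higher in 8 of 8 mice. Cmklr1 was seen in 17.9% of monocytes with Fpr2 and 9.65% of those without (higher in 7 of 8 mice). Anxa1 showed the opposite order, with 34.2% of monocytes with Fpr2 and 40.6% of those without (higher in 1 of 8 mice). In 2212 thinned macrophages, Fpr2 was seen in 15.7% of cells with Fpr1 and 8.78% of those without, higher in 4 of 8 mice. Cmklr1 was seen in 11% of macrophages both with and without Fpr2. These shares are a description of sparse counts and were not tested.

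Genes with the pattern most like each member were searched among 7957 genes over the mean log2 levels of 8 cell types. Nearest to Fpr2 were Hk3, a hexokinase (Pearson r = 0.987), the neutrophil chemokine Cxcl2 (0.987) and Mmp8, a neutrophil collagenase (0.986). Nearest to Fpr1 were Pdpn (0.989), the oxysterol receptor Nr1h3 (0.989) and Abcg3 (0.985), and nearest to Cmklr1 were the lysosomal chloride transporter Clcn7 (0.985), coagulation factor F7 (0.961) and the kinase Map3k11 (0.958). Gpr18 was closest to Dyrk2 (0.97), Smu1 (0.963) and BC003965 (0.953), and Anxa1 to Rnf13 (0.992), Scimp (0.988) and Ctbp2 (0.985). The 8 points share mice and libraries, so these values describe likeness only.

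The design compared parental with resistant tumors. In the sums over all kept CD45+ cells, Anxa1 and Gpr18 were the members whose parental and resistant mice did not overlap. Anxa1 was 287 and 299 CPM in parental, 350, 305 and 316 CPM in E0771-Res1 and 367, 378 and 364 CPM in E0771-Res2 mice. All 6 resistant mice thus lay above both parental mice. Between the resistant lines the log2 difference was 0.18 (SE 0.07, edgeR adjusted p = 0.161). In edgeR with all 8 mice, Anxa1 rose 1.25-fold in E0771-Res2 tumors (log2 fold change 0.33, SE 0.08, adjusted p = 0.0374), and the change in E0771-Res1 tumors was 0.14 (SE 0.08, adjusted p = 0.586). It was the only call among the 15 combinations of 5 genes and 3 pairs of lines. In the same fit 4.37% of 11326 genes passed for E0771-Res2 against E0771, 0.0353% for E0771-Res1 against E0771 and 4.20% between the resistant lines. Both resistant lines were compared with the same 2 parental mice. The Anxa1 call was lost when E0771 replicate 1 (adjusted p = 0.273), E0771 replicate 3 (0.162) or E0771-Res2 replicate 1 (0.0969), 2 (0.0631) or 3 (0.118) was left out. It was also lost with the replicate number as a block and without the 5% of cells with the highest Scrublet scores. Over all 14 alternatives the call held in 7, and the log2 fold change stayed between 0.28 and 0.38.

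Gpr18 was 18.2 and 19.7 CPM over all CD45+ cells in parental, 12.6, 12.5 and 10.8 CPM in E0771-Res1 and 13.1, 13.6 and 13.6 CPM in E0771-Res2 mice. All 6 resistant mice lay below both parental mice. The log2 fold changes, -0.65 in E0771-Res1 (SE 0.14, adjusted p = 0.138) and -0.49 in E0771-Res2 (SE 0.13, adjusted p = 0.0544), missed the threshold. Among 8902 genes with a mean of at least 5 CPM, 8.66% also had all 6 resistant mice below both parental mice, and 5.57% had them above, as Anxa1 did. Fpr1, Fpr2 and Cmklr1 overlapped between parental and resistant mice in these sums, with log2 fold changes from -0.22 to 0.18 against E0771. In sums over all cells, fewer cells of a type and less RNA per cell cannot be told apart. Monocytes made up 41% of kept parental, 33.1% of kept E0771-Res1 and 28.3% of kept E0771-Res2 cells, and cells that met no gate were 16.2%, 17.3% and 29.4%. Macrophages, the class with the highest Anxa1 mean, made up 17.4%, 22.9% and 20.9%, and lymphoid cells, with the highest Gpr18 mean, 7.99%, 7.78% and 4.76%. The 6 macrophage markers summed to 5312 and 5735 CPM over all CD45+ cells in parental, 5880 to 10080 CPM in E0771-Res1 and 7143 to 9162 CPM in E0771-Res2 mice. The neutrophil markers summed to 40.2 to 340.3 CPM over all CD45+ cells, the highest in E0771-Res1 replicate 2. The part of these shares and markers in the results was not tested.

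**Figure D3:**
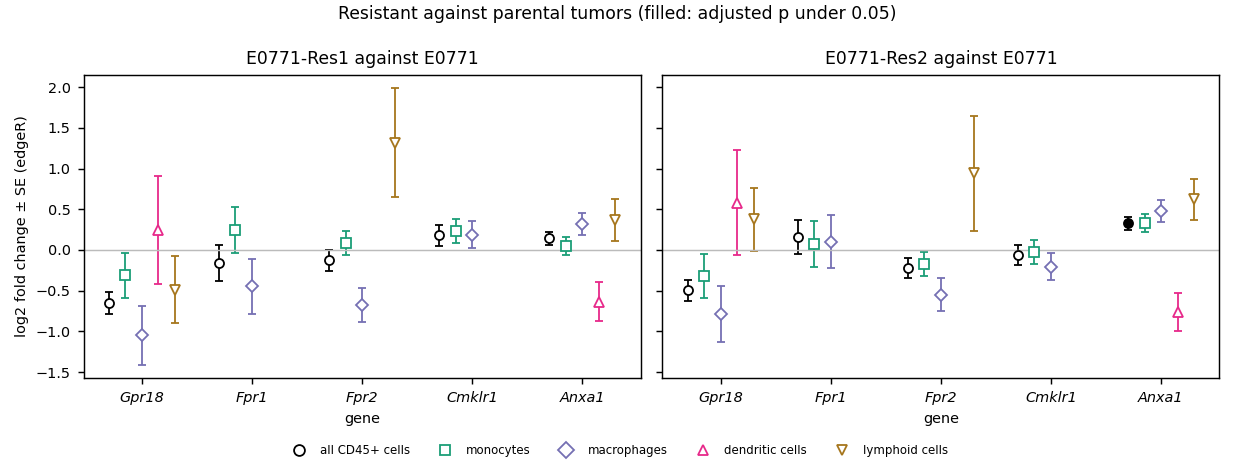
Log2 fold change of each gene, with its standard error, in E0771-Res1 (left) and E0771-Res2 (right) tumors against parental tumors, for all CD45+ cells and for each class, from edgeR over 8 mice. Filled symbols passed an adjusted p of 0.05, and genes under the low-count filter are not drawn. Only Anxa1 over all CD45+ cells in E0771-Res2, at 0.33, is filled.

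In macrophages, no gene of the 5 passed the test, beside 0.0993% of 9060 genes for E0771-Res1 against E0771 (1012 at an unadjusted p under 0.05), 1.80% for E0771-Res2 against E0771 (1344) and 2.47% between the resistant lines (1379). Fpr2 was lower in each resistant macrophage sum (31.8 to 50.6 CPM) than in both parental sums (60.5 and 71.7 CPM). Its log2 fold changes were -0.68 in E0771-Res1 (SE 0.21, adjusted p = 0.207) and -0.55 in E0771-Res2 (SE 0.20, adjusted p = 0.202). Gpr18 had the same order, with 22.9 and 22.3 CPM in parental, 10.2, 17.4 and 8.58 CPM in E0771-Res1 and 15.3, 6.24 and 16.1 CPM in E0771-Res2 macrophages. Its log2 fold changes were -1.05 (SE 0.36, adjusted p = 0.27) and -0.79 (SE 0.34, adjusted p = 0.293). Of 8724 genes, 6.87% had all 6 resistant mice below both parental mice in macrophages. Without the low-count filter, edgeR called Fpr2 (adjusted p = 0.0143) and Gpr18 (0.0286) lower in E0771-Res1 macrophages.

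Anxa1 in macrophages was 307 and 319 CPM in parental, 448, 313 and 415 CPM in E0771-Res1 and 417, 472 and 436 CPM in E0771-Res2 mice. E0771-Res1 replicate 2 lay among the parental values and the other 5 resistant mice above them. The log2 fold changes were 0.32 in E0771-Res1 (SE 0.14, adjusted p = 0.395) and 0.48 in E0771-Res2 (SE 0.14, adjusted p = 0.0916). The E0771-Res2 difference passed in 4 of 17 alternatives, with a gate of 5 (adjusted p = 0.0319) or 20 C1qa UMIs (0.0275), without the low-count filter (0.00302) and without E0771-Res1 replicate 2 (0.0197). Cmklr1 was 54.5 and 54.1 CPM in parental, 54.7, 74.9 and 66.0 CPM in E0771-Res1 and 44.4, 51.6 and 47.6 CPM in E0771-Res2 macrophages. Between the resistant lines the log2 difference of Cmklr1 was -0.39 (SE 0.14, adjusted p = 0.175) and did not pass, beside 2.47% of all genes. Fpr1 overlapped between all lines, from 13.2 to 35.3 CPM. E0771-Res2 macrophages had a median of 6977 to 8785 UMIs per mouse against 10073 and 10346 in parental mice, and the part of depth in these results was not tested.

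In monocytes no gene of the 5 passed, beside 0.0329% of 9109 genes for E0771-Res1 (808 at an unadjusted p under 0.05), 2.00% for E0771-Res2 (1427) and 2.50% between the resistant lines (1352). Anxa1 was 325 and 298 CPM in parental, 335, 322 and 299 CPM in E0771-Res1 and 353, 432 and 379 CPM in E0771-Res2 monocytes. Its log2 fold change in E0771-Res2 against parental mice was 0.33 (SE 0.11, adjusted p = 0.135). Gpr18 was 10.8 and 11.8 CPM in parental monocytes and 6.93 to 10.7 CPM in the 6 resistant mice, an order shared by 7.65% of 8201 genes (log2 fold changes -0.31 and -0.32, SE 0.28 and 0.27, adjusted p = 0.812 and 0.626). Fpr2 overlapped between lines in monocytes, from 70.5 to 107 CPM, as did Fpr1 (11.2 to 24.4 CPM) and Cmklr1 (48.6 to 70.9 CPM). Their log2 fold changes in E0771-Res1 and E0771-Res2 were 0.08 and -0.17 for Fpr2, 0.25 and 0.07 for Fpr1, and 0.23 and -0.03 for Cmklr1. In a fit of monocytes and macrophages together, chosen after the data had been seen, the E0771-Res1 change of Fpr2 was lower in macrophages than in monocytes by 0.81 on the log2 scale (SE 0.20), at an adjusted p of 0.219. No gene of the 5 passed that test, beside 0.0228% of 8757 genes for E0771-Res1 (606 at an unadjusted p under 0.05), 0.206% for E0771-Res2 (741) and 0% between the resistant lines (456).

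In dendritic cells Anxa1 ran against its direction over all cells. It was 277 and 408 CPM in parental, 255, 193 and 179 CPM in E0771-Res1 and 246, 172 and 167 CPM in E0771-Res2 mice, so that all 6 resistant mice lay below both parental mice, as 4.18% of 8572 genes did. The log2 fold changes, -0.63 (SE 0.24, adjusted p = 0.997) and -0.76 (SE 0.24, adjusted p = 0.513), did not pass, and these sums hold 22 to 106 cells per mouse. The edgeR background was 0% of 5364 genes for E0771-Res1 (240 at an unadjusted p under 0.05), 0.112% for E0771-Res2 (370) and 0.0932% between the resistant lines (344). Conventional dendritic cells, which had more Anxa1 than mature ones, were 37 of the 77 parental, 69 of the 173 E0771-Res1 and 67 of the 187 E0771-Res2 dendritic cells, and the part of this mix was not tested. Gpr18, the only other member tested in dendritic cells, overlapped between lines, from 8.75 to 30.7 CPM. Fpr2 was higher in all 6 resistant mice than in both parental mice (2.92 and 5.67 against 7.73 to 18.4 CPM, as for 4.33% of genes), at no more than 12 UMIs per mouse and under the low-count filter.

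In lymphoid cells no gene of the 5 passed, beside 0.0148% of 6736 genes for E0771-Res1 (275 at an unadjusted p under 0.05), 0.208% for E0771-Res2 (627) and 0.104% between the resistant lines (478). Anxa1 was 112 and 64.9 CPM in parental, 101, 151 and 123 CPM in E0771-Res1 and 133, 130 and 154 CPM in E0771-Res2 mice. Its log2 fold change in E0771-Res2 against parental mice was 0.62 (SE 0.25, adjusted p = 0.458). Between the resistant lines the log2 difference of Gpr18 was 0.86 (SE 0.35, adjusted p = 0.588), and both lines overlapped the parental mice. The CD8+ T cells, low in Gpr18 and Anxa1, were 3.3% of kept parental cells, with 2.27% for E0771-Res1 and 0.79% for E0771-Res2, and the 6 macrophage markers summed to 787 and 689 CPM in the lymphoid cells of the parental mice, 756, 1063 and 894 CPM in E0771-Res1 and 2545, 1104 and 2662 CPM in E0771-Res2. The part of this share and these markers in the results was not tested. Fpr2 was 11.4 and 4.05 CPM in parental, 15.9, 17.2 and 35.5 CPM in E0771-Res1 and 15.1, 10.2 and 27.4 CPM in E0771-Res2 mice, from 1 to 17 UMIs a mouse. Its log2 fold changes were 1.32 (SE 0.67, adjusted p = 1) and 0.94 (SE 0.71, adjusted p = 0.754). Fpr1 and Cmklr1 were under the low-count filter.

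Macrophages were split by Trem2, the lipid-sensing receptor that marks the study's proresolution macrophages, after thinning each cell to 2500 UMIs. Of the thinned macrophages, 879 had at least 1 Trem2 UMI and 1333 had none, with 24 to 233 and 59 to 336 cells per mouse. Anxa1 was 387 and 364 CPM in Trem2-positive cells of the parental mice, 454, 305 and 448 CPM in E0771-Res1 and 459, 581 and 519 CPM in E0771-Res2. In the Trem2-negative cells of the same mice it was 313 and 278, 363, 310 and 407, and 325, 399 and 378 CPM. Trem2-positive cells were higher in 7 of 8 mice, with E0771-Res1 replicate 2 the exception. The means were 440 ± 87.5 and 347 ± 46.7 CPM (SD, n = 8), and the log2 fold change with the mouse as a block was 0.38 (SE 0.09, edgeR adjusted p = 0.00125, 1.3-fold). In this split 5.06% of 3931 genes passed. Without the mouse block the adjusted p was 0.112, and the call held when any single mouse was left out.

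Fpr2 and Cmklr1, the receptors tested in the Trem2 split, did not pass. Fpr2 was 41.9 ± 26.0 CPM in Trem2-positive and 54.1 ± 17.5 CPM in Trem2-negative cells, lower in 5 of 8 mice (log2 fold change -0.36, SE 0.22, adjusted p = 0.453). Cmklr1 was 54.2 ± 27.7 and 64.5 ± 9.08 CPM, lower in 5 of 8 mice (-0.35, SE 0.20, adjusted p = 0.391). Gpr18 and Fpr1 were under the low-count filter, at 14.0 ± 13.6 and 12.7 ± 5.39 CPM for Gpr18 and 20.5 ± 17.3 and 21.7 ± 8.74 CPM for Fpr1.

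**Figure D4:**
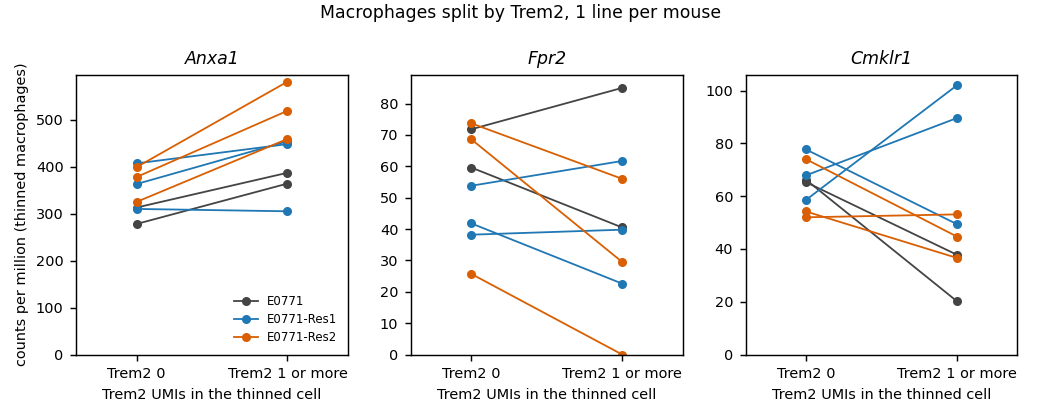
CPM of Anxa1, Fpr2 and Cmklr1 in macrophages with 0 and with at least 1 Trem2 UMI, each cell thinned to 2500 UMIs. Each line joins both values of 1 mouse and is colored by tumor line (2 E0771, 3 E0771-Res1, 3 E0771-Res2). Anxa1 was higher in Trem2-positive cells in 7 of 8 mice, and Fpr2 and Cmklr1 were lower in 5 of 8.

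Most of the other receptors listed, which do not all share a ligand with the receptors followed here, had few or no UMIs in these cells. Of 13 listed, Fpr3, Fpr-rs3, Fpr-rs4, Fpr-rs6, Fpr-rs7, Gpr1, Gpr37, Gpr37l1 and Gpr101 had 0 UMIs, Lgr6 had 1 and the low-affinity leukotriene receptor Ltb4r2 had 19. The leukotriene B4 receptor Ltb4r1 (4703 UMIs) and the chemerin-binding receptor Ccrl2 (25305 UMIs) were the 2 tested. Both were lower in macrophages than in monocytes, beside 52.4% of all genes called. The log2 fold changes were -1.77 (SE 0.11, adjusted p = 5e-15) for Ltb4r1 and -0.82 (SE 0.11, adjusted p = 1.49e-07) for Ccrl2. In E0771-Res2 against parental tumors, Ltb4r1 was 1.98-fold lower over all CD45+ cells (-0.99, SE 0.21, adjusted p = 0.0198), beside 4.37% of all genes called. Ccrl2 was higher in monocytes (0.57, SE 0.11, adjusted p = 0.0139), beside 2.00% of all genes. Ccrl2 was lower in Trem2-positive macrophages (-0.55, SE 0.10, adjusted p = 2.45e-05), beside 5.06% of all genes called.

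Of the 11 listed ligands and enzymes of mediator synthesis, the chemerin gene Rarres2 had 20 UMIs, Camp 1, Alox12 1, the 12/15-lipoxygenase Alox15 8 and the 5-lipoxygenase Alox5 105. Alox5ap, which presents arachidonate to 5-lipoxygenase, had 39927. Of 6 tested between macrophages and monocytes, 1 was higher and 4 lower, beside 52.4% of all genes called. Hebp1, the precursor of a peptide ligand of Fpr receptors, was higher (1.48, SE 0.19, adjusted p = 1.04e-07). Saa3, a serum amyloid A (-2.67, SE 0.36, adjusted p = 1.61e-07), Ptgs2, the inducible cyclooxygenase (-1.26, SE 0.12, adjusted p = 7.39e-11), Alox5ap (-0.95, SE 0.10, adjusted p = 2.6e-09) and Lta4h (-0.44) were lower. The median log2 fold change of the list was -0.70, beside 0.04 over all genes tested. Over all CD45+ cells, Hebp1 was 2.43-fold higher in E0771-Res2 than in parental tumors (1.28, SE 0.22, adjusted p = 0.00834), the only call among 7 tested, beside 4.37% of all genes. Ptgs2 was lower in E0771-Res2 than in parental macrophages (-0.84, SE 0.17, adjusted p = 0.0238), the 1 call of 5 tested, beside 1.80% of all genes. In Trem2-positive macrophages it was also lower (-0.68, SE 0.16, adjusted p = 0.00243), the 1 call of 4 tested, beside 5.06%.

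Other annexins varied in how they compared with Anxa1. Of 14 listed annexins and S100 partners, 10 were tested between macrophages and monocytes and 8 were lower in macrophages, led by S100a11 (-1.34, SE 0.08, adjusted p = 8.05e-15), S100a10 (-1.25, SE 0.11, adjusted p = 2.93e-11) and Anxa2 (-1.24, SE 0.07, adjusted p = 2.6e-15), beside 0.06 for Anxa1. The list median was -0.74, and 52.4% of all genes passed in this comparison. Between the other classes Anxa5, a phosphatidylserine-binding annexin chosen after its values were seen, had log2 fold changes on the same side as Anxa1. They were -1.85 in lymphoid cells and -0.46 in dendritic cells against monocytes. Of the 10 tested, 2 were higher and 4 lower in dendritic cells than in monocytes, beside 47.6% of all genes called. The higher ones, opposite to Anxa1, were Anxa3 (1.89, SE 0.16) and S100a11 (0.44). Against monocytes, lymphoid cells had 7 lower and 2 higher, beside 68.9% of all genes. Anxa6 (0.97) and Anxa11 (0.32) were the higher ones. Between conventional and mature dendritic cells, 4 were higher and 3 lower, beside 43.8% of all genes called. Anxa6 was higher (1.63), on the side of Anxa1. Anxa3 was 18.6-fold lower in conventional cells (-4.22, SE 0.34, adjusted p = 8.26e-13), the opposite side from Anxa1, and S100a10 was higher (1.87, SE 0.15, adjusted p = 5.51e-13). In E0771-Res2 against parental tumors over all CD45+ cells, 1 of 11 tested passed beside 4.37% of all genes. It was S100a11, an annexin A1 partner (-0.51, SE 0.12, adjusted p = 0.0369). In the Trem2 split 1 of 9 passed beside 5.06% of all genes, S100a10 (0.32, SE 0.08, adjusted p = 0.00675).

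Anxa1 is a known target of glucocorticoids, and 8 other glucocorticoid-responsive genes were listed. Over all CD45+ cells in E0771-Res2 against parental tumors, 2 rose and 1 fell, beside 4.37% of all genes called. Dusp1, a phosphatase of MAP kinases (0.61, SE 0.09, adjusted p = 0.00353), and Tsc22d3, the leucine zipper GILZ (0.47, SE 0.11, adjusted p = 0.0349), were higher, and the decoy receptor Il1r2 was 3.01-fold lower (-1.59, SE 0.13, adjusted p = 0.000464). The median over the list was -0.09, beside 0.01 over all genes. Monocytes had 3 calls of 7 tested, beside 2.00% of all genes. These were Dusp1 at 0.86 (adjusted p = 0.00471), Tsc22d3 at 0.67 (adjusted p = 0.0293) and Il1r2 at -1.66 (adjusted p = 0.000107). In macrophages Il1r2 was the 1 call of 7 tested (-1.92, SE 0.28, adjusted p = 0.00456), beside 1.80% of all genes. In dendritic cells it was the 1 call of 6 (-2.07, SE 0.32, adjusted p = 0.0228), beside 0.112%. In lymphoid cells Dusp1 was the 1 call of 7 (0.96, SE 0.15, adjusted p = 0.0159), beside 0.208%. The 4 lists had 0 calls in E0771-Res1 against parental tumors over all CD45+ cells and in each of the 4 classes, where the shares over all genes were 0.0353% (all CD45+ cells), 0.0329% (monocytes), 0.0993% (macrophages), 0% (dendritic cells) and 0.0148% (lymphoid cells).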

How the data were processed

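Droplet-based 3′ single-cell RNA-seq of sorted CD45+ tumor cells from 8 mice was used. The authors pooled tagged cells of all mice and deposited 1 matrix of UMI counts per mouse. The labels name Cell Ranger (6.1.2 in the headers of the deposited files), Seurat and the mm10 build. UMI counts were used as deposited. As in the study's methods, a cell needed 500 to 6000 genes and a mitochondrial share under 10%, and genes starting with mt-, Rpl, Rps or Gm were dropped, leaving 23649. No barcode was shared between mice (0 in all pairs).

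Cells were gated on UMIs of marker genes, the first gate met being taken. In order, these were neutrophils, lymphoid cells (CD8+ T, other T, NK and B), mixed cells with Csf1r or at least 10 C1qa UMIs and at least 2 UMIs of lymphoid markers, dendritic cells (plasmacytoid, mature, XCR1+ and conventional), macrophages, monocytes and the cells between them. Doublets were treated only by setting the mixed cells aside. Scrublet called 35 cells (0.33%), these calls were not used, and how well it called was not tested. Counts were summed per mouse and class and tested with edgeR 4.0.16 (TMM, filterByExpr, quasi-likelihood F-test, Benjamini-Hochberg over all genes tested, threshold 0.05) in R 4.3.3. All lines shared 1 fit per class, and classes, types and the Trem2 split had the mouse as a block. Groups of fewer than 10 cells in a mouse were left out of types. The fits of macrophages, of classes and of the Trem2 split were also run on simulated counts. These had the same dispersion for all genes and no mouse effect, so they do not test the mouse block or an uneven spread between mice. CPM is relative to the summed counts of the kept genes. Shares of cells have exact binomial intervals (95%) that cover counting error only. The paper states that the tumors of each model came from several animals, so the mice of a line carried separate tumors. Whether they were implanted in separate sessions is not stated, and p-values measure the spread between these mice. Replicates of a line differed by more than the counting noise of UMIs. UMIs come grouped in cells, so that excess is not by itself a measure of the spread between tumors.

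The rule named all 5 genes, the 3 genes most like each, and up to 3 called genes with the largest change per list and comparison. Others named from the lists were chosen after their values were seen. The members, lists and tests were chosen with earlier results of these data known. Alternatives were DESeq2 1.42.0, RLE scaling, no low-count filter, all deposited cells, C1qa gates of 5 and 20 UMIs, gates on UMIs scaled to 8000 per cell, the replicate number as a block, no mouse block, removal of the 5% of cells with the highest Scrublet scores, and leaving out each mouse. The fits over single types and of monocytes with macrophages, and the counts of genes without overlap, were added after seeing the data. Sequences came from RefSeq (GRCm38.p6) and gene spans from GENCODE M21 on the same build.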

Additional observations from a re-analysis of the deposited data

How the results depend on the processing

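Each value was recomputed under settings that changed 1 choice at a time. Without leaving out a mouse, 365 values of single genes kept their direction and their side of the threshold, 7 gained a call and 17 lost one. With each mouse left out in turn, 349 kept both, 3 gained a call and 32 lost one. None of these recomputed values changed sign while called.

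Over all CD45+ cells, the count of calls among the 5 genes and 3 pairs of lines was 1, and it was 2 with all deposited cells, 2 without the low-count filter, 0 with the replicate block, 0 without the 5% of cells with the highest Scrublet scores, and 0 to 2 with 1 mouse left out. In macrophages it was 0, and it was 1 with a gate of 5 C1qa UMIs, 1 with a gate of 20, 3 without the filter, and 0 to 1 with 1 mouse left out. In monocytes, dendritic cells and lymphoid cells it stayed at 0 with 1 mouse left out. In the Trem2 split it was 1, and 0 without the mouse block and 1 with any mouse left out. Between classes the count was 25, and 22 to 24 with 1 mouse left out. Between types it was 4, and 3 to 5 with 1 mouse left out. Without thinning, the mean share of cells over mice with a UMI was 7.68% for Gpr18, 6.41% for Fpr1, 21.8% for Fpr2, 22.9% for Cmklr1 and 61.1% for Anxa1. Where a setting does not itself remove cells, mice or the filter, the cause was not tested.

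The replicate number as a block moved the Anxa1 call in E0771-Res2 over all CD45+ cells to an adjusted p of 0.0506. Correlations between same-numbered mice of different lines ran from -0.04 to 0.065. They were taken on deviations from line means and so depend on each other, and they cannot exclude a batch by number. Leaving out 1 parental mouse leaves 1, which is then assumed to vary like the other mice.

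Depth limits Gpr18 and Fpr1 most, at 920 and 1123 UMIs in all kept cells. Only 2 parental mice were used, so a difference from the parental line rests on their small spread. Dendritic sums of 22 to 106 cells a mouse give few UMIs of any receptor.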

Other observations

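Cells outside the 4 classes also held the 5 genes. The 815 cells with both myeloid and lymphoid markers had a median of 11632 UMIs, above every class, and 18.1 CPM of Gpr18, 46.8 CPM of Fpr2, 33.5 CPM of Cmklr1 and 266 CPM of Anxa1 (means of 8 mice). The 2460 cells that met no gate had a median of 2973 UMIs. In them Gpr18 was 26.7 ± 0.348 CPM in parental (SD, n = 2), 11.2 ± 4.38 CPM in E0771-Res1 (n = 3) and 12.1 ± 1.23 CPM in E0771-Res2 mice (n = 3), the order also seen over all CD45+ cells. These differences were not tested.

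Rare cells were too few for values per mouse. In 17 plasmacytoid dendritic cells, 23.5% had a Gpr18 UMI after thinning (95% exact interval 6.81 to 49.9%). In 17 XCR1+ dendritic cells, which cross-present antigen, 82.4% had an Anxa1 UMI (56.6 to 96.2%). The 17 neutrophils, a type known for both formyl peptide receptors, held 7 UMIs of Fpr1 and 10 of Fpr2 at a median of 3870 UMIs per cell.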
